A study of Mus musculus with 16 samples.

Results

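Voltage-gated potassium channel genes were followed through an H3K27me3 ChIP-seq series on mouse embryonic stem cells with an inducible copy of Firre, a long non-coding RNA. The set held 34 genes chosen by family membership: 7 Kv1 genes (Kcna), 6 genes of the Kv2, Kv3 and Kv4 families (Kcnb, Kcnc, Kcnd), 10 modifier subunits (Kcnf, Kcng, Kcns, Kcnv), 8 genes of the EAG family (Kcnh), 2 KCNQ genes and 1 gene of the large-conductance calcium-activated (BK) channel, Kcnma1. Each gene took all consensus peaks of H3K27me3 that overlapped its mm10 span extended by 2000 bp on either side, and the counts of those peaks were summed. All 34 genes had at least 1 peak. They made up 34 of 18362 distinct gene regions and held 314 of 102957 consensus peaks, and no peak was shared between members.

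Voltage-gated potassium channels open when the membrane is depolarised and let potassium leave the cell, which ends action potentials and sets the resting potential of neurons, heart and muscle. A functional channel is an assembly of pore-forming subunits. Subunits of the Kv1, Kv2, Kv3, Kv4, EAG and KCNQ families form channels on their own, while the modifier subunits act only in combination with Kv2 subunits. H3K27me3, trimethylation of lysine 27 on histone H3, is laid down by Polycomb repressive complex 2, typically over CG-rich promoters of genes that are silent in stem cells and used in later lineages. The mark says nothing directly about expression, which was not analysed here.

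The 4 lines carried the genotypes WT (WT control), Firre WT with a Firre inducible transgene (WT transgene), Firre KO (KO control) and Firre KO with a Firre inducible transgene (KO transgene). All were grown with serum, LIF, PD0325901 (a MEK inhibitor) and CHIR99021 (a GSK3 inhibitor), and all are labelled as treated with doxycycline, the inducer, for 0 or 48 h. Each of the 8 combinations of line and time had 1 H3K27me3 library and 1 input library, so no condition was replicated, and the labels name neither the transgene's promoter nor whether a line is 1 clone. Depth over the peaks was 10380781 to 14787938 counts for H3K27me3 and 3340654 to 6244333 for input. Relative to chromosome X, the WT control line had 0.694 of the input expected over the Firre peak. The WT transgene line had 14.9, KO transgene had 10.7, and the KO control line had 11.1. Extra Firre sequence in that KO control line goes against a line with neither gene nor transgene, so it is called the line labelled KO control throughout, and the comparisons between 0 and 48 h, of induction, of KO with WT and of transgene with control lines are given with and without it. Chromosome 11 took 8.44% and 8.255% of input in the WT control and WT transgene lines, but 11.1% in the line labelled KO control and 9.97% in KO transgene, and Kcnh4 and Kcnh6, which lie on it, are therefore treated apart. As a check of the cell type, only 1 of 10 pluripotency genes had a peak. All 5 neural, all 5 primitive endoderm and all 5 trophoblast marker genes had one, and so did 5 of 6 fibroblast marker genes. Of all 27025 genes with a RefSeq promoter entry, 15611 had a peak. A peak alone does not show a high level of the mark. H3K27me3 over input, defined below, ran from 0.866 to 1.81 over the trophoblast genes. It ran from 1.11 to 2.15 over the neural, 1.34 to 1.74 over the primitive endoderm and 0.982 to 1.40 over the fibroblast genes. The 1 pluripotency gene with a peak had 1.31, so its level was not low.

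The promoter sequences of the most strongly marked members show how different the DNA at their annotated start sites was. RefSeq promoter entries (GRCm38.p6, the build of mm10) reach from 250 bases before to 50 bases after a start site, and 25 of the 34 members had one. In the sequences below, CG dinucleotides are in capitals. Kcna7, Kcns1, Kcnf1 and Kcnc1 are shown as members with high H3K27me3, and Kcnh8 as a long gene with low summed H3K27me3.
Kcna7, chr7:45405710-45406009, plus strand, 4 CG: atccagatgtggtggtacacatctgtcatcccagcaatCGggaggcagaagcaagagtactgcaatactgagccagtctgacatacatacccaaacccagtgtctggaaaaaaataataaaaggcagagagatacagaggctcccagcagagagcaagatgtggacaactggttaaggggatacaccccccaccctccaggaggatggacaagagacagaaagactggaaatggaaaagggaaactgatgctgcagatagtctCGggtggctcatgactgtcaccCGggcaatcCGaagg
Kcns1, chr2:164171064-164171363, minus strand, 22 CG: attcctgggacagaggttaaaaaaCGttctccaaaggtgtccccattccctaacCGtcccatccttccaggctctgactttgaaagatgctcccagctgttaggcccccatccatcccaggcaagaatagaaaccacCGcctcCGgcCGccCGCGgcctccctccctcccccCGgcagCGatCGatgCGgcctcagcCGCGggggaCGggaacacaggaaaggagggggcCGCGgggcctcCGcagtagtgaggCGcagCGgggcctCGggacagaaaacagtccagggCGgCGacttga
Kcnf1, chr12:17176839-17177138, minus strand, 3 CG: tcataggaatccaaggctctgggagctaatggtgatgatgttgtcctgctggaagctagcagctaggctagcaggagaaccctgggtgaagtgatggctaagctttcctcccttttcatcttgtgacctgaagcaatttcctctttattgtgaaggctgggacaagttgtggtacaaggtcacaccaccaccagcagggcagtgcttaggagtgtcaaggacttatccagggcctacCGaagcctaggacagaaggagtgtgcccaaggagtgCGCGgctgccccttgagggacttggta
Kcnc1, chr7:46396218-46396517, plus strand, 41 CG: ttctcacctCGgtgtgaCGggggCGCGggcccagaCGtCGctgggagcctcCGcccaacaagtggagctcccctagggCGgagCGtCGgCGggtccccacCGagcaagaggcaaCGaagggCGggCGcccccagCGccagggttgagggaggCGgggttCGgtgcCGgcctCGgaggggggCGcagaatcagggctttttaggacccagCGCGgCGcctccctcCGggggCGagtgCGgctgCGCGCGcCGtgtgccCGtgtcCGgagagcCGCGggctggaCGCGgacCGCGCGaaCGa
Kcnh8, chr17:52602459-52602758, plus strand, 21 CG: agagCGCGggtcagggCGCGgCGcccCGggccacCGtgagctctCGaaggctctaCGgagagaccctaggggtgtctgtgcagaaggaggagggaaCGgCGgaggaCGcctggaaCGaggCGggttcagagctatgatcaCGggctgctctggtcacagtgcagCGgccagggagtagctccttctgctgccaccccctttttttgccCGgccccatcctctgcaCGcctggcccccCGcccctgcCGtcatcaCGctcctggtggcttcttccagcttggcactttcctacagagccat

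CG dinucleotides were common in most of these promoters. The median member promoter held 21 CG (range 3 to 49, 25 members), against a median of 7 over 27025 genes with an entry, and 17 of the 25 members (68.0%) held 15 or more, against 35.2% of all entries and 28.1% of those lying in a consensus peak. Yet Kcna7 with 4 CG and Kcnf1 with 3 CG were among the 3 members with the highest summed H3K27me3. Across the 25 members, CG count and H3K27me3 of the strongest peak did not move together (Pearson r = -0.04, Spearman rho = -0.07, given as a description, since the members share libraries and input). Member counts took the first entry of a gene. Kcnq5 thus counted 3 CG though another entry held 20, and Kcns3 counted 9 though another held 32. An entry covers only a small part of a peak, and the strongest peak of Kcng4 did not hold its promoter. The searched motif was CG, which reads the same on both strands.

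Peaks over annotated start sites carried the mark at most of the 25 members with a promoter entry. Such a peak can be far wider than the entry, as with 64.2 kb at Kcna3. It therefore does not place the mark at the start site itself. Every one of the 25 promoters lay in a consensus peak, against 53.3% of the 15611 genes with both a peak and a promoter entry. H3K27me3 over input, the ratio of CPM (counts scaled to the library's total over peaks) in the antibody library to CPM in the matched input, is used here as the level. Gene length cancels in this ratio as a scale factor, and a value of 1 is the average over all consensus peaks and not the genomic background. Higher and lower than input are meant on this scale throughout. Lower thus means below that average and does not mean that the mark is absent. The peak over the promoter, picked by position alone, had a median ratio of 1.40 over the 25 members. In edgeR's quasi-likelihood test on all peaks with Benjamini-Hochberg adjustment over all of them at 0.05, 23 of these 25 peaks were higher in H3K27me3 than in input, and none was lower. Over all 6981 consensus peaks holding a promoter entry, 43.4% were higher and 21.8% lower. The promoter peaks of Kcns3 (log2 ratio 0.08 ± 0.05, SE) and Kcnh7 (-0.02 ± 0.04) did not pass the test. These values depend on the scaling: with TMM factors in place of total counts, the median log2 ratio of all peaks moved from -0.21 to -0.05, Kcns3 (0.25 ± 0.05) and Kcnh7 (0.14 ± 0.04) passed as higher, and 57.5% of promoter peaks were higher and 5.97% lower.

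Summed over all peaks of a gene, the members also stood above most regions. Their median ratio over input was 1.24, against 0.967 over all 18362 regions, and the order of the medians was the same in all 8 conditions, with member medians of 1.188 to 1.245 and overall medians of 0.965 to 0.985. The same test on regions called 23 of 34 members higher than input and 8 lower, while 28.7% of all regions were higher and 37.5% lower. The 3 members that passed in neither direction were Kcns3, Kcnh5 and Kcnma1. Of the 314 single peaks, 45 were higher and 106 lower, against 7.76% and 36% of all peaks. With TMM factors 54 were higher and 25 lower, against 13.8% and 9.805% of all peaks, so the balance of higher and lower peaks turned with the scaling.

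**Figure D1:**
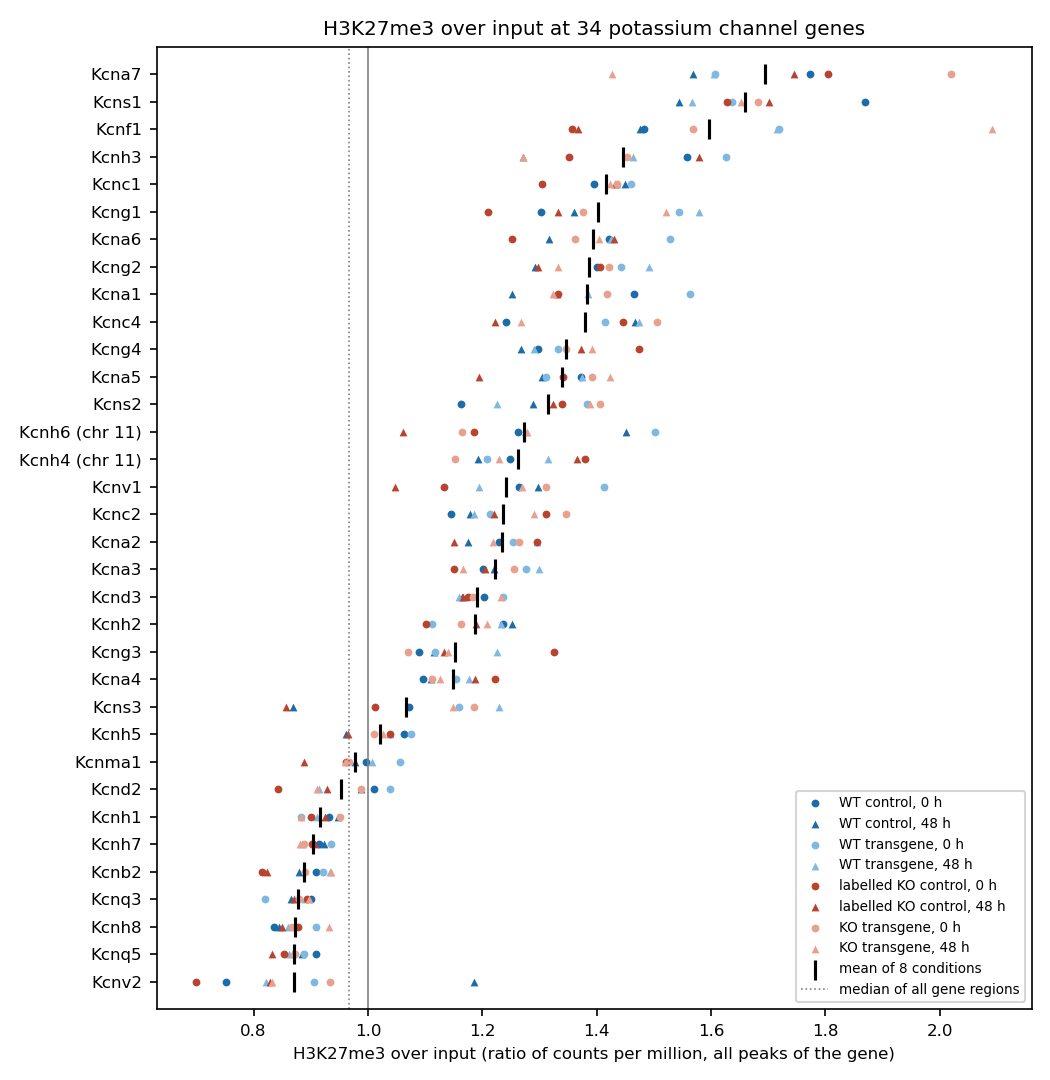
H3K27me3 over input (x axis, ratio of CPM over all peaks of a gene) for the 34 genes (y axis) in the 8 conditions. Colours give the line, circles 0 h and triangles 48 h, black bars the mean of the 8 conditions, the solid line a ratio of 1 and the dotted line the median of all gene regions (0.967); values run from 1.69 for Kcna7 to 0.870 for Kcnv2, and Kcnv2 spreads from 0.6999 to 1.19.

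The ratio of the members fell with gene length and number of peaks, though the lowest member, Kcnv2, spans only 15.1 kb. Whether genes outside the set show the same was not tested. The 24 members with 1 to 5 peaks, spanning 1.97 to 196.4 kb, had a median ratio of 1.33. The 10 members with 10 or more peaks (Kcnd3, Kcnh5, Kcnma1, Kcnd2, Kcnh1, Kcnh7, Kcnb2, Kcnq3, Kcnh8 and Kcnq5), spanning 222 to 713 kb, had a median of 0.911. Across the 34 members the ratio fell with the logarithm of the span (Pearson r = -0.75, Spearman rho = -0.68, a description across genes that share all libraries). The promoter peak showed no such split. In the 8 long members with a promoter entry it had a median ratio of 1.41, close to 1.38 in the 17 shorter ones, and the remaining peaks of these 8 genes together had ratios of 0.807 to 1.12. In 7 of these 8 long members the promoter peak lay above the other peaks of the gene in every 1 of the 8 conditions, Kcnh7 being the exception with 7. The promoter peak was also the peak with the authors' highest deposited fold enrichment in all 8, against 46.3% of the 941 genes with 10 or more peaks and a promoter entry.

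**Figure D2:**
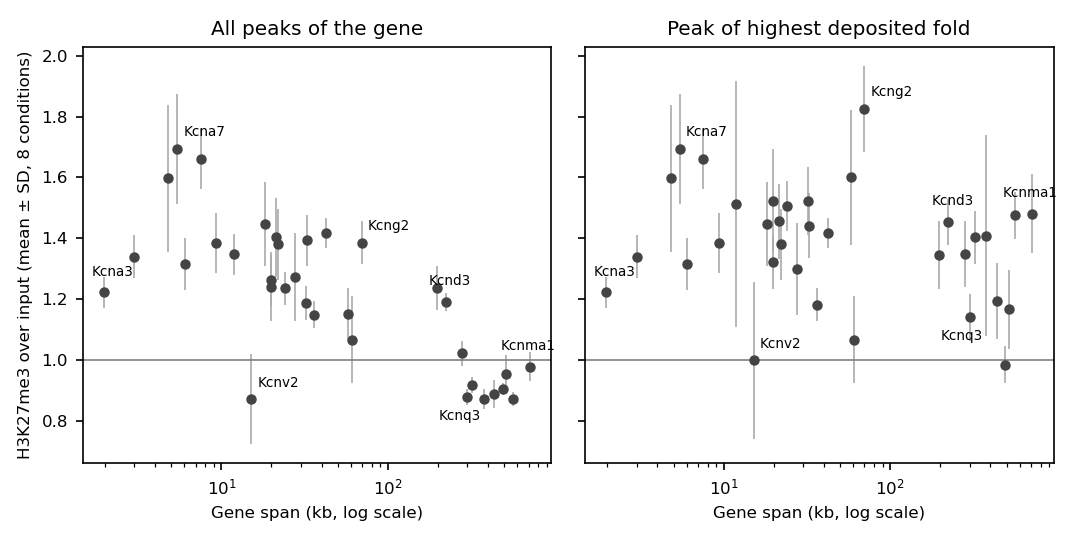
H3K27me3 over input (y axis, mean ± SD over 8 conditions) against gene span (x axis, kb, log scale) for the 34 genes, over all peaks of a gene (left) and over its peak of highest deposited fold enrichment (right). Long genes lie near or below 1 on the left, while on the right most of them lie among the short genes; the peaks on the right were chosen for their fold, which favours genes with many peaks.

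The Kv1 genes, which encode delayed rectifier and A-type subunits of axons and many other cells, were all higher in H3K27me3 than in input. Kcna7, a muscle and heart subunit, had the highest ratio of all members, with 1.43 at the lowest, 1.68 at the median and 2.02 at the highest of the 8 conditions. Its mean of 1.69 ± 0.181 (SD, n = 8 conditions) lay above 97.5% of all regions, on 258 to 379 H3K27me3 counts per library. The highest value was KO transgene at 0 h and the lowest the same line at 48 h. Kcna7 has 1 peak of 7.02 kb that covers the whole gene (chromosome 7, 45405960 to 45411382).

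Of the other Kv1 genes, 5 lie in 2 clusters. On chromosome 6, Kcna5, Kcna1 and Kcna6 follow each other with gaps of 100.9 and 62.5 kb, and their strongest peaks were 44.8, 67.35 and 43.4 kb wide. Their ratios were alike, at 1.34 ± 0.0707 for Kcna5 (Kv1.5), 1.38 ± 0.0976 for Kcna1 (Kv1.1, the subunit mutated in episodic ataxia) and 1.39 ± 0.0829 for Kcna6. On chromosome 3, Kcna3 (Kv1.3, the main voltage-gated potassium channel of T cells) sat under a peak of 64.2 kb with a ratio of 1.22 ± 0.0519, and Kcna2 lay 52.75 kb away with 1.235 ± 0.0530. Kcna4 (Kv1.4, a fast-inactivating subunit) was the lowest of the family at 1.15 ± 0.0446. Widths of 40 kb or more were found for the strongest peak of 6 of 34 members (17.65%) and of 4.99% of all gene regions, against 0.713% of all peaks. The region of Kcna3 also holds AI504432, and that of Kcna6 also holds Gm33581, so their counts cannot be assigned to 1 gene.

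The Kv2, Kv3 and Kv4 genes divided by length. Kcnc1 (Kv3.1, which lets fast-spiking neurons fire at high rates) had ratios of 1.30 at the lowest, 1.43 at the median and 1.46 at the highest condition, under a single peak of 50.2 kb, and a mean of 1.42 ± 0.0495. Its lowest value was the line labelled KO control at 0 h. The related Kcnc4 reached 1.38 ± 0.116, and Kcnc2 reached 1.24 ± 0.0714 over its 196.4 kb. The Kv4 genes, which carry the somatodendritic A-type current, were split: Kcnd3 was higher than input (1.19 ± 0.0306) and Kcnd2 lower (0.9525 ± 0.0647). Kcnd2 was called lower by a narrow margin (log2 -0.07 ± 0.03, adjusted p = 0.0270), and the call ended with TMM factors (adjusted p = 0.102), in DESeq2 (0.247) and without any 1 of 4 libraries (-0.06 to -0.05), which were both of the line labelled KO control, WT transgene at 48 h and KO transgene at 48 h. Kcnb2 (Kv2.2) was lower at 0.888 ± 0.0469, with 1.19 ± 0.124 at its strongest peak.

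The modifier subunits held 3 of the 6 highest members and also the lowest one. Kcns1 (Kv9.1) had ratios of 1.545 at the lowest, 1.64 at the median and 1.87 at the highest condition, and a mean of 1.66 ± 0.0996. Its single peak of 24.4 kb (chromosome 2, 164159967 to 164184384) also covers Wfdc5 and LOC115486434. Kcnf1 (Kv5.1) had ratios of 1.36, 1.53 and 2.09 at the lowest, median and highest condition and a mean of 1.60 ± 0.243, with the highest value in KO transgene at 48 h and only 215 to 313 H3K27me3 counts per library.

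Among the Kv6 genes, Kcng1 had ratios of 1.21, 1.37 and 1.58 at the lowest, median and highest condition. Kcng2 averaged 1.39 ± 0.0710 over 4 peaks, all of them with a mean ratio above 1, and its strongest peak of 15.4 kb had the highest ratio of any member's strongest peak, 1.83 ± 0.141. Kcng3 shows the same contrast within a shorter gene, with 1.60 ± 0.223 at the strongest peak over its promoter and 0.798 ± 0.126 over its other 4 peaks. Kcng4 (1.35 ± 0.0669), Kcns2 (1.315 ± 0.0851) and Kcnv1 (1.24 ± 0.113) were higher than input. Kcnv2, a retinal subunit (chromosome 19, 27322061 to 27337179), was the lowest member, with ratios of 0.6999 at the lowest, 0.831 at the median and 1.19 at the highest condition and a mean of 0.870 ± 0.148. It rests on 87 to 156 H3K27me3 counts per library, and its call as lower than input (log2 -0.21 ± 0.08, adjusted p = 0.0195) ended without the WT control library at 0 h (-0.18 ± 0.09, adjusted p = 0.0724) and in DESeq2 (0.137).

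The EAG family followed length in the same way. Kcnh3 (an ELK channel of forebrain neurons) was the highest, with ratios of 1.27, 1.46 and 1.63 at the lowest, median and highest condition and a mean of 1.45 ± 0.138; its region also holds Gm46538. Kcnh2 (the HERG channel of cardiac repolarisation) had 1.19 ± 0.0571 over 4 peaks and 1.52 ± 0.112 at the strongest peak. Kcnh1, Kcnh7 and Kcnh8 were lower than input, with 0.917 ± 0.0266, 0.905 ± 0.0193 and 0.872 ± 0.0330. Kcnh8 ranged from 0.837 through a median of 0.864 to 0.932 over the gene, whereas its promoter peak of 3.71 kb ranged from 1.04 through 1.31 to 2.15. Kcnh5 had 1.02 ± 0.0419 over the gene and 1.35 ± 0.108 over the promoter peak.

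Both KCNQ members, subunits of the M-type current that restrains repetitive firing, were lower than input over the gene. That is below the average over all consensus peaks, and the strongest peaks of Kcnq5 and Kcnq3 had deposited fold enrichments of 2.58 and 2.15. Kcnq5 (chromosome 1, 21398399 to 21962650) ranged from 0.8315 through a median of 0.8695 to 0.909 over 36 peaks, but from 1.37 through 1.46 to 1.58 over its promoter peak, so that the ranges did not meet. Of its 36 peaks, that was the single one with a mean ratio above 1. Kcnq3 ranged from 0.820 through 0.885 to 0.901 over the gene, and its strongest peak averaged 1.14 ± 0.0779. Kcnma1, the pore-forming subunit of the BK channel and the longest member at 713 kb (chromosome 14, 23292288 to 24005110), had 64 peaks with a summed ratio of 0.977 ± 0.0478, and 1.48 ± 0.130 at the peak over its promoter.

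Related genes outside the set were read from lists made for comparison. Of 7 further pore-forming genes, 6 had a peak and 5 were higher than input, among them Kcnq1 (a KCNQ channel of the heart, ratio 1.44 ± 0.0773), while Kcna10 (1.07 ± 0.0884) did not pass. All 20 accessory subunit genes had a peak, and 8 were higher and 10 lower, with a median log2 ratio of 0.00 against -0.07 over all regions. Of 33 inward rectifier, two-pore and other potassium channel genes with a peak, 19 were higher and 6 lower. Of 23 sodium, calcium and HCN channel genes, 13 were higher and 5 lower. No difference between these lists was tested.

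No member region passed the test between 0 and 48 h of doxycycline. In edgeR's test with line as a block, 0 of 34 passed, while 1.9% of all regions changed. At that share a count of 0 in 34 says little about the members. An unadjusted p under 0.05 was found for 2 members, against 2462 of all 18362 regions. DESeq2 gave an adjusted p for 20 of the 34 members and called 0, and without the line labelled KO control edgeR also called 0 of 34. Member log2 differences ran from -0.11 to 0.04, with a median of -0.01. The extreme value was Kcns3 (-0.11 ± 0.06, adjusted p = 0.358, 95% interval -0.22 to -0.00), and the smallest p belonged to Kcng2 (-0.06 ± 0.02, adjusted p = 0.137). Per line, the median ratio of 48 h to 0 h was 0.993 in WT control, 0.987 in WT transgene, 0.991 for the line labelled KO control and 1.00 in KO transgene.

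**Figure D3:**
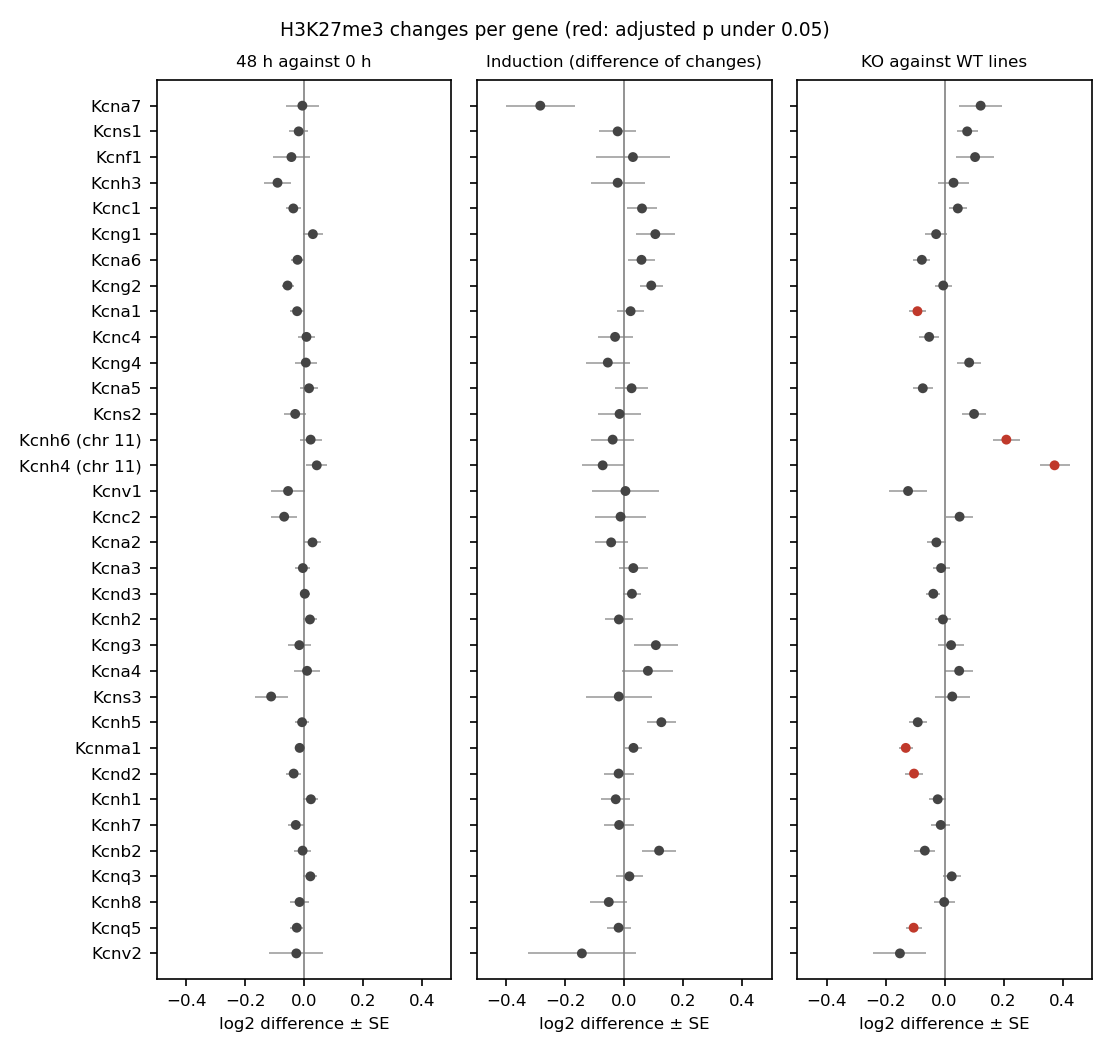
Log2 differences in H3K27me3 ± SE (x axis) for each of the 34 genes (y axis, ordered by ratio over input) at 48 h against 0 h, for the added change in transgene lines and for KO against WT lines. Red marks values past the threshold: there are 0, 0 and 6, and apart from Kcnh4 and Kcnh6 on chromosome 11 no red value is larger than 0.13 in size.

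Among single peaks, 1 of 314 changed with time, against 0.109% of all peaks. This peak lies within Kcnma1, 447.7 kb along the gene from its start site, and is 12.2 kb wide. In CPM it went from 29.4 to 23.1 in WT control, from 28.95 to 23.5 in WT transgene, from 26.9 to 22.4 in the line labelled KO control and from 27.99 to 24.55 in KO transgene. All 4 lines were thus lower at 48 h, and the values at the 2 times did not overlap. The log2 difference was -0.28 ± 0.06 (edgeR, adjusted p = 0.00225). It was -0.28 ± 0.06 without the line labelled KO control (adjusted p = 0.03325). The call ended when either library of a WT line was left out (adjusted p = 0.167 and 0.165 for WT control at 0 and 48 h, 0.0628 and 0.0647 for WT transgene), when the difference was taken over input (-0.32 ± 0.11, adjusted p = 0.925) and in DESeq2 (adjusted p = 0.759). The other peaks of Kcnma1 did not pass, and 38 of the 64 lay below 0, with a median of -0.02.

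**Figure D4:**
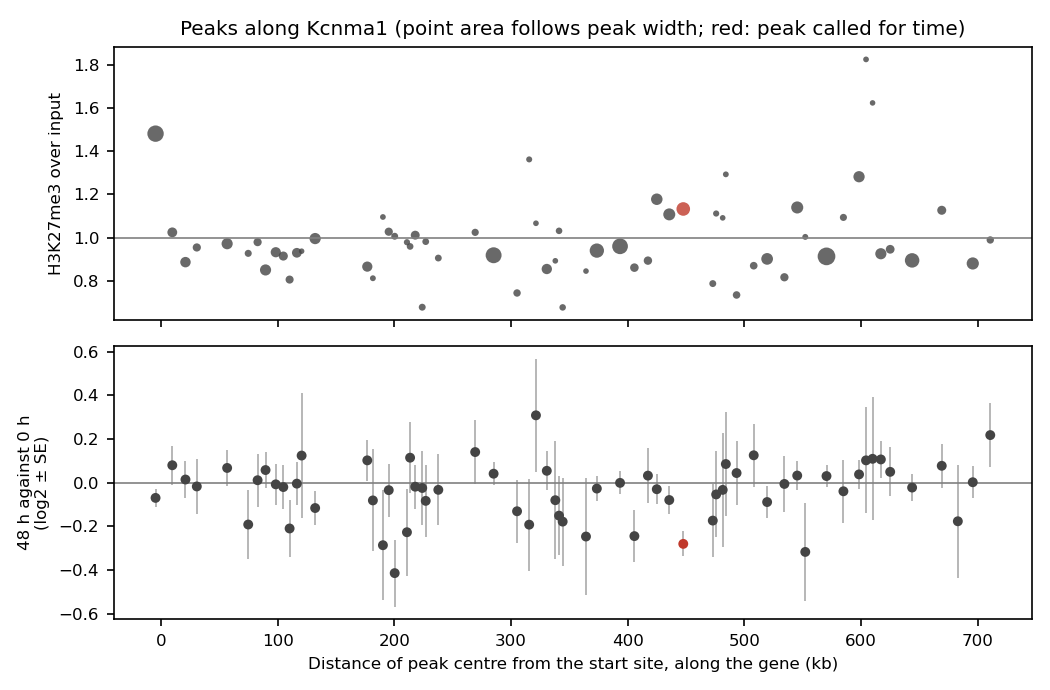
The 64 peaks along Kcnma1 by distance of their centre from the start site (x axis, kb). The upper panel gives the mean H3K27me3 over input of each peak with point area following its width (a peak without input counts in a library has no ratio), and the lower panel the log2 difference of 48 h against 0 h ± SE; the wide peak at the start has a ratio of 1.48, and the red peak at 447.7 kb is the only one past the threshold for time.

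Induction was taken as the change from 0 to 48 h in the lines labelled with the transgene beyond that in the lines labelled without it, and was not detectable at any member. The second group includes the line labelled KO control, whose input over Firre was as high as in KO transgene. In edgeR 0 of 34 regions passed, against 0.049% of all regions, and in DESeq2 0 passed. At an unadjusted p under 0.05 edgeR had 4 members, against 989 of all 18362 regions. Of the single peaks 0 of 314 passed in edgeR, against 0.00583% of all peaks. An unadjusted p under 0.05 was found for 15 of these 314, against 5055 of all 102957 peaks. Only 2 residual degrees of freedom were left in this fit. Without the line labelled KO control, 0 of 34 regions and 0 of 314 peaks passed, with 1 residual degree of freedom. The member values ran from -0.28 to 0.13 with a median of -0.01.

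The largest value belonged to Kcna7 (-0.28 ± 0.12, adjusted p = 0.876, 95% interval -0.51 to -0.06), and was -0.19 ± 0.14 without the line labelled KO control. Its ratio of 48 h to 0 h was 0.749 in KO transgene (95% exact binomial interval 0.644 to 0.870, counting error only), 1.11 in WT transgene, 1.03 in WT control and 1.18 for the line labelled KO control. The values of the 2 transgene lines lay on opposite sides of 1. Kcnv2 had an induction value of -0.14 ± 0.18, Kcnh5 of 0.13 ± 0.05, Kcnb2 of 0.12 ± 0.06 and Kcng3 of 0.11 ± 0.08. In the order WT control, WT transgene, labelled KO control and KO transgene, the ratios of 48 h to 0 h were 1.005, 0.875, 1.08 and 1.00 for Kcnv2 and 0.950, 1.08, 0.949 and 0.968 for Kcng3. For Kcnh5 the ratios were 0.961 in WT control and 0.935 in the line labelled KO control against 1.035 and 1.034 in WT transgene and KO transgene, and for Kcnb2 they were 0.960 and 0.943 against 1.02 and 1.05. For both genes the values of WT transgene and KO transgene lay above those of the other lines, at adjusted p = 0.843 and 0.895. Without the line labelled KO control the induction value was 0.11 ± 0.06 for Kcnh5 and 0.11 ± 0.07 for Kcnb2.

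Between KO and WT lines, the 2 members on chromosome 11 were higher in KO, together with their input. Kcnh4 (chromosome 11, 100740378 to 100760115) measured 53.7, 55.6, 59.9 and 57.7 CPM in the 4 WT libraries, 76.4 and 81.9 for the line labelled KO control and 65.5 and 67.9 in KO transgene. Its input measured 43.0, 46.6, 49.6 and 43.9 in WT, then 55.4 and 60.0, then 56.8 and 55.2. The groups did not overlap in either assay. The H3K27me3 difference was 0.37 ± 0.05 on the log2 scale (adjusted p = 1.3e-06), the input difference 0.34 ± 0.06, and the difference over input 0.03 ± 0.07.

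Kcnh6 (chromosome 11, 106008044 to 106035595) measured 52.3 to 58.1 CPM in WT, 68.1 and 66.75 for the line labelled KO control and 60.2 and 61.5 in KO transgene, and its input ranged from 38.7 to 44.5 in WT and from 48.1 to 62.8 in KO. Here H3K27me3 differed by 0.21 ± 0.05 and input by 0.44 ± 0.07, and over input the value was -0.24 ± 0.08 (adjusted p = 0.102), which passed only without WT transgene at 48 h (-0.32 ± 0.09, adjusted p = 0.0325). On chromosome 11, 86% of all regions were called higher in KO. Without the line labelled KO control the difference was 0.19 ± 0.05 for Kcnh4 and 0.09 ± 0.05 for Kcnh6, and the Kcnh6 call ended (adjusted p = 0.338). The KO side is then a single line.

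**Figure D5:**
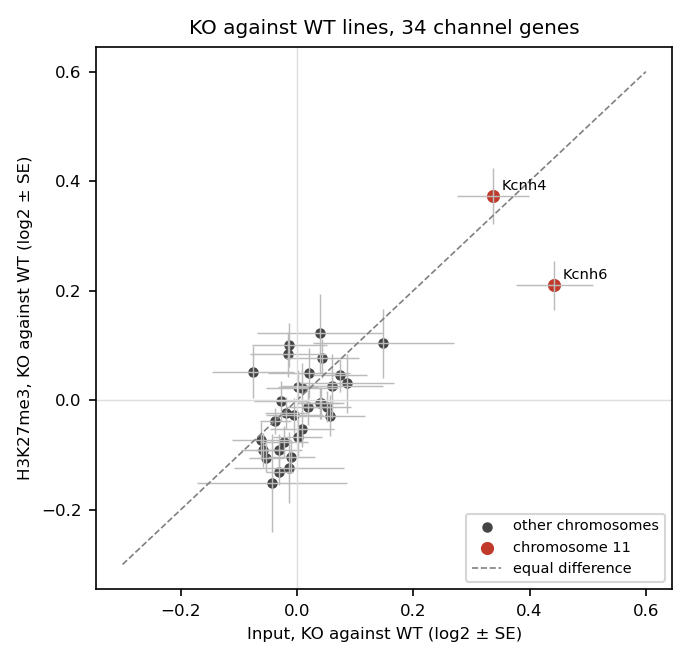
KO against WT log2 differences ± SE of input (x axis) and H3K27me3 (y axis) for the 34 genes, with equal differences on the dashed line. Kcnh4 (0.34 and 0.37) and Kcnh6 (0.44 and 0.21) on chromosome 11 stand apart from the other 32 genes.

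Off chromosome 11, 4 of 32 members were lower in KO lines and none higher, against 3.48% and 4.1% of all regions there. Kcnma1 measured 605.1, 589.5, 611.8 and 603.7 CPM in the WT libraries, 523.3 and 512.9 for the line labelled KO control and 567.3 and 571.9 in KO transgene. Every KO library lay below every WT library, and the line labelled KO control lay lowest. The difference was -0.13 ± 0.02 (adjusted p = 0.0001245), and -0.08 ± 0.02 without that line (adjusted p = 0.000299), a change of size by over 1.5 times and a test in which KO transgene alone stands for KO. The fit counts the 0 and 48 h libraries of a line as separate samples, although they lay close together. With both times summed, so that each line counts once (4 samples, 1 residual degree of freedom), the difference was -0.14 ± 0.04 (adjusted p = 0.0228). Of the 64 peaks of Kcnma1, 55 lay below 0, with a median of -0.15, although none of them passed by itself. Of all 314 member peaks, which include these 64, 116 lay above 0, with a median of -0.05 against -0.01 over all peaks. Taken over input, 49 of the 64 lay below 0, with a median of -0.10. The peaks of a gene share all libraries and are not replicates.

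The other 3 differences were smaller. Kcnq5 measured 240.2, 233, 232.7 and 229.4 CPM in the WT libraries, 211.4 and 213.8 in the labelled KO control line and 221.2 and 212.7 in KO transgene. Kcnd2 measured 141, 138.2, 141.9 and 137.2, then 126.9 and 124.6, then 133.1 and 128.8. Kcna1 measured 183.6, 173.1, 191 and 181.9, then 164.1 and 166.5, then 170.4 and 174.9. WT and KO libraries did not overlap for Kcnq5 and Kcnd2, and they did for Kcna1. Kcnq5 differed by -0.10 ± 0.03 (adjusted p = 0.00612), Kcnd2 by -0.10 ± 0.03 (0.0168) and Kcna1 by -0.09 ± 0.03 (0.0331). Without the line labelled KO control, Kcnq5 (-0.08 ± 0.03, adjusted p = 0.0584) and Kcnd2 (-0.08 ± 0.04, 0.1495) did not pass, and Kcna1 did (-0.10 ± 0.03, 0.0272). The Kcnd2 call also ended without either WT control library (adjusted p = 0.0624 and 0.0818 for 0 and 48 h). The Kcna1 call ended without any 1 of the 4 libraries of 0 h (adjusted p = 0.153, 0.0909, 0.0827 and 0.102 for WT control, WT transgene, the line labelled KO control and KO transgene) and with chromosome 11 left out (0.0634). With each line counted once none of the 3 passed (adjusted p = 0.161, 0.199 and 0.281 for Kcnq5, Kcnd2 and Kcna1). In DESeq2, and with each line counted once, only Kcnh4, Kcnh6 and Kcnma1 passed.

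Taken over the matched input, Kcnma1 was the only member that passed between KO and WT lines. Its ratio over input was 0.996 and 0.978 in WT control, 1.06 and 1.01 in WT transgene, 0.968 and 0.960 in KO transgene, and 0.961 and 0.889 for the line labelled KO control. WT and KO did not overlap. The log2 difference over input was -0.10 ± 0.03 (adjusted p = 0.0280), against 0.436% of all regions lower and 0.703% higher. The value stayed between -0.12 and -0.09 in all 17 alternatives, while adjusted p ran from 0.0187 to 1.00. It missed the threshold with each line counted once (-0.11 ± 0.04, adjusted p = 0.2475), without the line labelled KO control (-0.11 ± 0.04, adjusted p = 0.154), in DESeq2 and without any 1 of 5 libraries, namely WT control at 0 h (adjusted p = 0.0676) and 48 h (0.124), WT transgene at 0 h (0.111), KO transgene at 0 h (0.163) and the line labelled KO control at 48 h (0.157).

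Of the 314 single peaks, 3 were higher and 1 lower in KO lines before input was considered, against 4.42% of all peaks called in either direction. The higher ones were the promoter peaks of Kcnh4 and Kcnh6 and 1 peak of Kcng4, and the lower one was the promoter peak of Kcnh8 (-0.35 ± 0.10), which held only 82 to 161 H3K27me3 counts per library. The Kcnh8 peak measured 9.61, 9.345, 11.95 and 11.9 CPM in the WT libraries, 7.90 and 6.94 in the labelled KO control line and 10.7 and 7.57 in KO transgene, so WT and KO overlapped. The Kcng4 peak measured 11.06 to 11.4 CPM in WT, 14.2 and 13.5 in the labelled KO control line and 13.95 and 12.1 in KO transgene. Without the line labelled KO control, Kcnh4 kept its call (0.20 ± 0.05, adjusted p = 0.0185), and Kcnh6 (0.10 ± 0.05, 0.531), Kcng4 (0.23 ± 0.11, 0.475) and Kcnh8 (-0.39 ± 0.12, 0.0895) did not. Over input 0 of 314 passed in edgeR, against 0.07% of all peaks, and in DESeq2 0 passed. An unadjusted p under 0.05 was found by edgeR for 14 of these 314, against 7421 of all 102923 peaks.

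Between transgene and control lines, 0 of 34 member regions passed in edgeR, against 1.47% of all regions. At an unadjusted p under 0.05 there were 6 members, against 2375 of all 18362 regions. DESeq2 gave an adjusted p for 26 of the 34 members and called 0. At the level of peaks 0 of 314 passed, against 0.0748% of all peaks. An unadjusted p under 0.05 was found for 32 of these 314, against 8019 of all 102957 peaks. Values lay above 0 for 27 of 34 members, with a median of 0.04 against -0.00 over all regions, the largest being Kcns3 (0.17 ± 0.06, adjusted p = 0.156). Without the line labelled KO control, Kcng2 passed (0.10 ± 0.03, adjusted p = 0.0326), with 0.04 ± 0.03 when all 4 lines were used. Of all 18362 regions, 274 were higher and 162 lower without that line, so 1 member in 34 says little about the members. Among single peaks, 3 of 314 passed without that line, against 200 higher and 32 lower of all 102956 peaks. These were 1 each of Kcnma1 (0.26 ± 0.05, adjusted p = 0.00532), Kcng3 (0.28 ± 0.07, 0.0279) and Kcng2 (0.24 ± 0.06, 0.0225). WT control was then the only line without the transgene.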

How the data were processed

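H3K27me3 ChIP and input were measured in 8 conditions of mouse embryonic stem cells, 1 library each. The authors deposited raw read counts per consensus peak, and a peak list with a score, a fold enrichment as a ratio and −log10 p- and q-values from the peak caller, per the file headers. BWA 0.7.17-r1188, MACS2 2.2.71, featureCounts and DESeq2 1.26.0 are named in the submitters' processing notes with build mm10, and their settings are not given in the sources used here. Peak counts were summed over each gene's span plus 2000 bp. Levels are CPM, counts scaled to the library's total over peaks, divided by CPM of input.

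Tests used edgeR 4.0.16 (quasi-likelihood, with limma 3.58.1 in R 4.3.3), with total counts as library sizes against input and TMM otherwise, Benjamini-Hochberg adjustment over all regions or peaks and a threshold of 0.05. SE is the Wald standard error. DESeq2 1.42.0, other normalizations, filters and flanks, and each library or the line labelled KO control left out were alternatives. Leaving out that line, counting each line once, and the alternatives for promoter peaks and for all peaks against input were chosen after seeing the data. The procedures were tested on simulated data with independent libraries and with changes larger than those of any member region between conditions. That check therefore does not show how well changes of the reported size are found. Nothing in the labels says that libraries are separate cultures beyond line and time. P-values thus measure at most a spread between lines and times that may be technical, and intervals on counts cover counting error only. In the main fits of time and of induction, edgeR's common dispersion, its spread beyond counting error, was only 9.77e-05. It was as low for regions in KO against WT and in transgene against control without the line labelled KO control. P-values of those fits rest mainly on counting error and not on a spread measured between lines.

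The members and lists were chosen with earlier results of these data known. The rule for values by library, or their lowest, median and highest, took members past the threshold other than against input, the 6 highest and 4 lowest over input, those on chromosome 11, the 5 with the largest induction values and the strongest peaks of these.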

Additional observations from a re-analysis of the deposited data

Results flagged for a closer look

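Ratios over input were examined for single conditions far from the others, among the 4 WT and the 4 KO conditions of each gene. Of 68 such groups, 4 held one, and chance alone gives about 1 in 20. Kcna1 reached 1.42 in KO transgene at 0 h, with 1.32 to 1.33 in the other KO conditions. Kcnc1 was at 1.30 in the line labelled KO control at 0 h, with 1.42 to 1.435 in the others. Kcnh2 was at 1.11 in WT transgene at 0 h, with 1.23 to 1.25 in the others. Kcnma1 was at 0.889 in the line labelled KO control at 48 h, with 0.960 to 0.968 in the others, and its call over input ended without that library.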

How the results depend on the processing

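Members called against input numbered 29 to 32 in all 14 alternatives, against 31, and calls were lost only for Kcnd2 and Kcnv2. Their promoter peaks called higher numbered 23 to 25, with 25 under TMM factors and 24 in DESeq2. All peaks called lower than input went from 37015 to 10092 with TMM factors, and member peaks from 106 to 25. Members called KO against WT fell from 6 to 3 in DESeq2 and to 3 with both times of a line summed, and ran from 4 to 8 with 1 library left out. Leaving out chromosome 11 takes Kcnh4 and Kcnh6 out of the fit. Of the other 32 members 3 were then called, against 4 in the main fit. Over input the count of 1 became 0 in DESeq2, 0 without the line labelled KO control and 0 with both times summed, and ran from 0 to 2 with 1 library left out. Between transgene and control lines it went from 0 to 1 without the line labelled KO control. Among all regions 274 were then higher and 162 lower. Member peaks without that line went from 4 to 1 for KO against WT and from 0 to 3 between transgene and control lines. Over all 102956 peaks, 1446 were higher and 221 lower for KO against WT, and 200 and 32 between transgene and control lines. Member peaks changed with time went from 1 to 0 in DESeq2, to 0 taken over input and to 0 with no line block, and ran from 0 to 1 with 1 library left out. No call of a member region, nor that of the Kcnma1 peak with time, reversed in direction. The balance of member peaks against input did turn, from 45 higher and 106 lower to 54 and 25 with TMM factors and 47 and 7 in DESeq2. The promoter peak of Kcnh7, not called at a log2 ratio of -0.02, passed as higher at 0.14 with TMM factors. The cause of these differences was not tested. Over all regions DESeq2 called 1292 in KO against WT (edgeR 2424), 9 over input (209), 30 with time (349), 3 with induction (9) and 23 between transgene and control lines (270). No paired analysis was possible because the labels give no replicate numbers that pair libraries across lines. Times within a line, and H3K27me3 with its input, were paired by the design and fitted so. Depth limits Kcnv2, Kcnf1 and Kcna7 most, and 1 library per condition limits all comparisons.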
